A study of Apeltes quadracus with 21 samples.

Results

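The *Hox* genes of paralogue group 2 were followed across the spines and median fins of *Apeltes quadracus*, the four-spine stickleback. The members were the gene models whose name is *HOX*, a letter from A to D, the number 2 and a final A or B. There were 3 of them, *HOXA2A*, *HOXB2A* and *HOXA2B*, among 47 named *Hox* genes and 31532 gene models in all, and all 3 passed the filter on low counts that left 21134 gene models for testing. RNA-seq covered 7 tissues from 3 fry at the fin fold stage (stage 31), which gave 21 libraries and n = 3 per tissue. The tissues were the anal fin (AF), the dorsal fin (DF), a blank pterygiophore (Pter, a midline support that bears no spine) and the 4 dorsal spines in order along the body, namely DS1, DS2, DS3 and the last dorsal spine, DSL, just in front of the dorsal fin. All 3 fish had 4 dorsal spines, belonged to the Louisbourg population and carried the L/L genotype at *HOXDB*, that is, both copies of the haplotype linked to low spine number. Tissues were dissected whole, so each library mixes the cell types of its structure. The comparisons among tissues ask how the expression of these genes differs between spines, and between spines and fins, along the dorsal midline.

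*Hox* genes encode homeodomain transcription factors that give body segments their identity, and genes near the 3′ end of a cluster are, as a rule, expressed farthest forward. Group 2 genes lie close to that end. They are best known from the hindbrain and from the neural crest of the second pharyngeal arch, where loss of *Hoxa2* in the mouse turns arch skeleton towards the form of the first arch. A genome duplication in teleosts left duplicate *HoxA* clusters, named HOXAA and HOXAB, so that *HOXA2A* and *HOXA2B* are duplicates of a single ancestral gene, while *HOXB2A* is the group 2 gene of the HOXBA cluster.

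The 3 genes lay on different chromosomes of the authors' *Apeltes* assembly. *HOXA2A* occupied positions 9754298 to 9755680 of chromosome 10 on the minus strand, as a single unbroken block of 1383 bp, with *HOXA3A* 3811 bp away on one side and *HOXA1A* 3815 bp away on the other. *HOXB2A* ran from 1380544 to 1383381 of chromosome 11, also on the minus strand, in blocks of 831 and 487 bp separated by 1520 bp, and its nearest *Hox* neighbours were *HOXB3A* at 5864 bp and *HOXB1A* at 17461 bp. *HOXA2B* ran from 9591281 to 9593228 of chromosome 20 on the plus strand, in blocks of 673 and 830 bp separated by 445 bp. It stood at the end of the HOXAB cluster, and its nearest *Hox* neighbour was a gene of group 9, *HOXA9B*, at 4177 bp. The span of *HOXA2A* fell inside an unnamed gene model of the opposite strand, STRG.13719, positions 9751031 to 9759360, whose exons shared 0 bp with it. That model had 42 reads in all 21 libraries together, against 1313 reads for *HOXA2A*. Its reads were 9, 3 and 8 in the DS1 libraries and 0, 6 and 3 in the DS2 libraries, and at most 3 in any other library. Like those of *HOXA2A*, they were thus most frequent in DS1. Whether the counts of these models are separate was not tested. No gene model overlapped *HOXB2A* or *HOXA2B*.

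Library totals ran from 26357373 to 34564481 reads. Levels are CPM, read counts divided by the TMM-scaled library size, on which 1 read was worth 0.0254 to 0.0459 CPM. Besides the *Hox* genes the gene models carry no names, so the labelled tissues could be checked only against *Hox* genes. Group 13 genes, which mark the distal part of fins, summed to between 32.2 and 33.6 CPM in the AF libraries and between 29.0 and 34.6 CPM in the DF libraries, and to at most 1.77 CPM in any Pter or spine library. Nearly all of this sum came from *HOXA13A* and *HOXA13B*. The other members, *HOXC13A* with 45 reads over the 21 libraries and *HOXB13A* with 3, did not pass the filter. The 3 genes of group 1, whose classic domain is the hindbrain, were almost absent: *HOXA1A* had 6 reads over the 21 libraries, *HOXB1A* had 2 and *HOXB1B* had 0, and none of them passed the filter.

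All 3 group 2 genes were expressed at low levels. *HOXA2A* had 4 to 195 reads per library, *HOXB2A* 5 to 132 and *HOXA2B* 8 to 70. Averaged over the libraries and divided by the exon length of each gene model, these are 1.52 CPM per kb for *HOXA2A*, 1.40 CPM per kb for *HOXB2A* and 0.640 CPM per kb for *HOXA2B*. On this scale, which depends on the model lengths, the genes took places 28, 30 and 37 of the 47 *Hox* genes. Tissue accounted for 96.9% of the variance of *HOXA2A* (log2 CPM over 21 libraries) and fish for 0.549%. For *HOXB2A* the shares were 95.2% and 0.801%. *HOXA2B* was less ordered by tissue, with 61.4% for tissue and 14.6% for fish, against medians of 41.3% and 23.6% over all gene models tested. The omnibus test over the 7 tissues (edgeR quasi-likelihood, Benjamini-Hochberg over all gene models tested, as for every adjusted p here) gave an adjusted p of 6.83e-08 for *HOXA2A*, 1.32e-06 for *HOXB2A* and 0.0593 for *HOXA2B*, in a comparison where 20.2% of gene models passed. With fish as a term the value for *HOXA2B* was 0.00371, with 49.1% of gene models passing. It was also below 0.05 when 1 of these libraries was left out: DS1 replicate 1 (0.0232), DSL replicate 1 (0.0493) or DSL replicate 2 (0.0428).

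**Figure D1:**
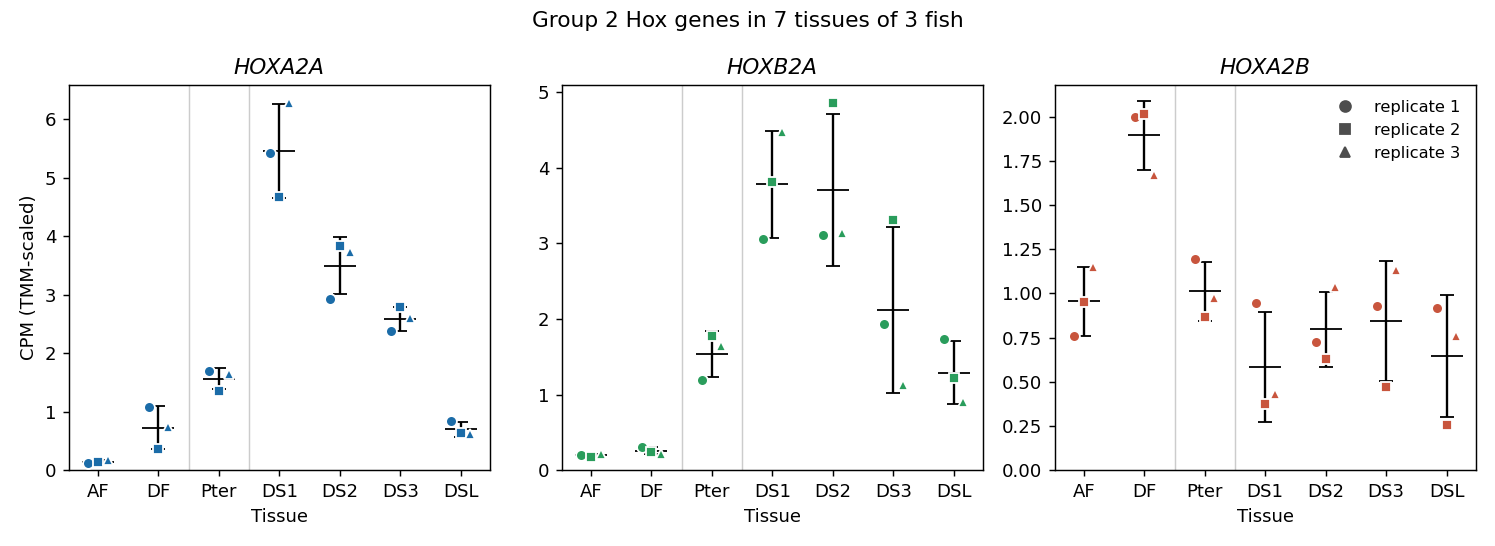
Level of each group 2 gene (CPM, vertical axis, a separate scale for each gene) in the 7 tissues (horizontal axis), with a point for each library, shaped by fish, and bars for the mean ± SD (n = 3). *HOXA2A* is highest in DS1, with a mean of 5.45 CPM, and lower at each later spine, *HOXB2A* is near 3.7 CPM in both DS1 and DS2, and *HOXA2B* is highest in DF, with a mean of 1.89 CPM.

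*HOXA2A* was graded along the spine series. In DS1 its levels were 5.41, 4.67 and 6.27 CPM (replicates 1 to 3, the same fish in each tissue). DS2 held 2.93, 3.83 and 3.73 CPM. DS3 held 2.37, 2.79 and 2.59 CPM, and DSL 0.848, 0.643 and 0.614 CPM. No 2 neighbouring spines overlapped, which for the single steps in this direction was true of 3.47%, 3.07% and 8.13% of gene models. The level was lower at every step in 3 of 3 fish, which was the case for 8 gene models, 0.0379% of those tested. The means were 5.45 ± 0.802 CPM in DS1, 3.50 ± 0.494 in DS2, 2.59 ± 0.208 in DS3 and 0.702 ± 0.127 in DSL (SD, n = 3 each). In bulk tissue, fewer cells that express a gene and less RNA per cell cannot be told apart.

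The difference of *HOXA2A* between the front and the back of the series passed the test. In DSL the level was 7.75-fold lower than in DS1 (log2 difference -2.95 ± 0.30 SE, adjusted p = 2.44e-05, edgeR), in a comparison where 0.0379% of gene models were called lower. Fish by fish, the level in DS1 was 6.38, 7.26 and 10.2 times that in DSL. The posterior spines, DS3 and DSL, had 0.614 to 2.79 CPM (median 1.61), against 2.93 to 6.27 CPM (median 4.25) in the anterior spines, DS1 and DS2. These 6 and 6 libraries did not overlap, which in this direction was true of 0.0568% of gene models. The log2 difference was -1.69 ± 0.20 SE (3.24-fold lower, edgeR adjusted p = 0.000235), and *HOXA2A* was 1 of the 4 gene models, 0.0189% of those tested, called lower in the posterior spines. In the test over the 4 spines the adjusted p was 0.000271 (0.232% of gene models passed). That test asks for any difference among the 4 spines, and a fall at each step was not tested as such. Without replicate 3 the fold changes stayed close, at -1.57 on the log2 scale between posterior and anterior spines and -2.75 between DSL and DS1, but the adjusted p (edgeR) were 0.138 and 0.0592. The test over the 4 spines gave 0.0711 without replicate 1 and 0.143 without replicate 3.

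Step by step, only the last interval passed the test for *HOXA2A*. DSL was 3.68-fold lower than DS3 (log2 difference -1.88 ± 0.29 SE, edgeR adjusted p = 0.0104), where 0.0426% of gene models were called lower. The call was lost when libraries were left out: leaving out any of the fish gave adjusted p (edgeR) of 0.221 to 0.234, and leaving out DSL replicate 2 or DSL replicate 3 gave 0.0966 and 0.0790, with log2 differences between -2.09 and -1.76 throughout. DS2 against DS1 gave -0.64 ± 0.27 and DS3 against DS2 -0.44 ± 0.27 on the log2 scale, each with an edgeR adjusted p of 1.0. In those 2 comparisons edgeR called 1 and 3 of all gene models (0.00473% and 0.0142%), and no group 2 gene was called by edgeR, with or without fish as a term, by DESeq2 or by limma-voom. The unadjusted values under 0.05 were those of *HOXA2A* in DS2 against DS1, in each of these 4 fits (0.0292 in edgeR, 0.00994 with fish as a term, 0.00966 in DESeq2 and 0.00335 in limma-voom), and those of *HOXB2A* in DS3 against DS2 (0.0254 in edgeR, 0.00747 with fish as a term, 0.0214 in DESeq2 and 0.00610 in limma-voom).

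*HOXB2A* was also highest at the front, but with a plateau over DS1 and DS2. Its levels were 3.05, 3.81 and 4.47 CPM in DS1. In DS2 they were 3.11, 4.86 and 3.14 CPM. In DS3 they were 1.93, 3.30 and 1.13 CPM, and in DSL 1.73, 1.22 and 0.906 CPM. Each spine overlapped its neighbour. DS2 was the highest spine in replicates 1 and 2, and the level was lower at every step only in replicate 3. The tissue means were 3.78 ± 0.709 CPM in DS1, 3.70 ± 1.00 in DS2, 2.12 ± 1.10 in DS3 and 1.29 ± 0.416 in DSL (SD, n = 3 each). DS3 was the most variable, with a coefficient of variation of 51.8%.

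The front-to-back difference of *HOXB2A* passed the edgeR test over all libraries only when fish was a term in the fit. The posterior spines had 0.906 to 3.30 CPM (median 1.48), against 3.05 to 4.86 CPM (median 3.47) in the anterior spines, and the overlap came from a single library, DS3 replicate 2. The log2 difference was -1.18 ± 0.24 SE with an edgeR adjusted p of 0.0764, and -1.20 ± 0.20 with 0.00375 when fish was a term, a fit that called 0.303% of gene models lower. DSL against DS1 gave -1.55 ± 0.34 (2.94-fold lower in DSL, adjusted p = 0.0771), and -1.57 ± 0.29 with 0.00533 when fish was a term (0.402% of gene models called lower). The test over the 4 spines gave 0.141, and 0.00647 with fish as a term (4.99% of gene models passed). Without DS3 replicate 2 the adjusted p (edgeR) were 0.0116 between posterior and anterior spines, 0.0379 between DSL and DS1 and 0.0429 over the 4 spines. Without DS3 replicate 3 that for DSL against DS1 was 0.0386. Some other omissions of a fish or library raised the adjusted p (edgeR). It reached 0.683 between posterior and anterior spines and 0.719 between DSL and DS1. The level was lower in DSL than in DS1 in 3 of 3 fish, DS1 having 1.76, 3.11 and 4.94 times the level of DSL.

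*HOXA2B* showed no such gradient. Its levels were 0.944, 0.375 and 0.433 CPM in DS1. In DS2 they were 0.723, 0.632 and 1.04 CPM. In DS3 they were 0.927, 0.472 and 1.13 CPM, and in DSL 0.918, 0.257 and 0.760 CPM. All 4 spines overlapped, and replicate 2 was the lowest fish in DS1, DS2, DS3 and DSL alike, with 8 to 16 reads per library. The log2 difference between posterior and anterior spines was 0.11 with a 95% interval of -0.54 to 0.75. That between DSL and DS1 was 0.13 with an interval of -0.79 to 1.06. Changes within these intervals were not excluded. The signs of both small values turned when single libraries were left out. Whether the response of *HOXA2B* along the spines differed from that of *HOXA2A* was not tested as such. The interval of *HOXA2A* for DSL against DS1 ran from -3.58 to -2.33 and did not meet that of *HOXA2B*.

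**Figure D2:**
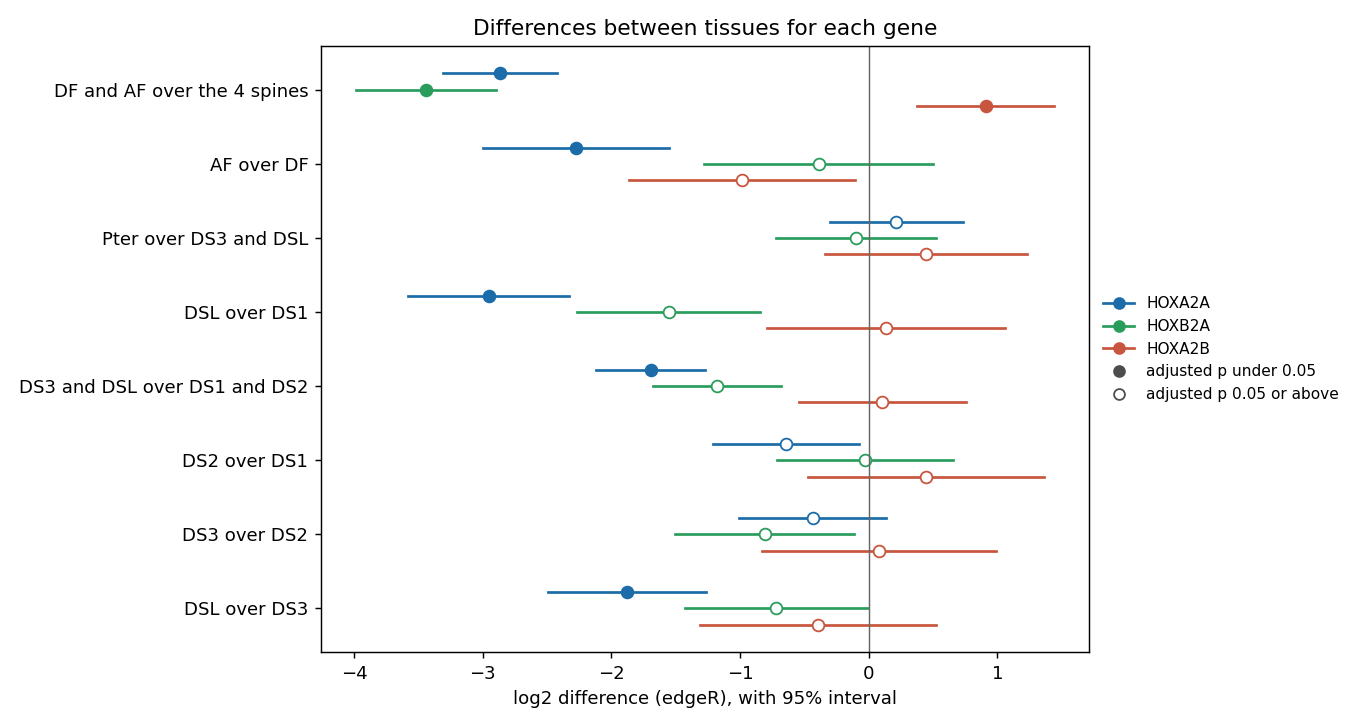
Log2 difference of each gene (horizontal axis, edgeR estimate as a point with its 95% interval) in the 8 comparisons between tissues (vertical axis). Filled points have an adjusted p under 0.05. *HOXA2A* lies at -2.95 and *HOXB2A* at -1.55 for DSL over DS1, where *HOXA2B* lies at 0.13, and for the fins over the spines the 3 genes lie at -2.86, -3.44 and 0.91.

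In the blank pterygiophore, *HOXA2A* and *HOXB2A* had mean levels between those of DS3 and DSL, while the mean of *HOXA2B* was above that of every spine. *HOXA2A* had 1.70, 1.36 and 1.64 CPM in Pter, below every DS3 library and above every DSL library. The share of gene models with such a position of Pter was not counted. *HOXB2A* had 1.19, 1.77 and 1.64 CPM there, within the joint range of DS3 and DSL. *HOXA2B* had 1.19, 0.864 and 0.975 CPM, above the mean of DS3 and DSL in 3 of 3 fish but overlapping their range. Set against DS3 and DSL together, the log2 differences were 0.22 ± 0.25, -0.10 ± 0.30 and 0.45 ± 0.37 SE for *HOXA2A*, *HOXB2A* and *HOXA2B*. None of the 3 passed the test in edgeR, DESeq2 or limma-voom or had an unadjusted edgeR p under 0.05, in a comparison where 7.41% of gene models passed. The 95% intervals were -0.30 to 0.73, -0.72 to 0.52 and -0.34 to 1.23. Since DS3 and DSL differed 3.68-fold for *HOXA2A*, their mean hides that Pter lay between them. Against all 4 spines the value of *HOXA2A* was -0.63 (edgeR adjusted p = 0.0864). Pter libraries had the lowest TMM factors, 0.773 to 0.797, against 0.861 or more elsewhere.

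Both fins had little *HOXA2A* and *HOXB2A*. For *HOXB2A* the levels were 0.203, 0.170 and 0.212 CPM in AF and 0.314, 0.241 and 0.219 CPM in DF, from 5 to 11 reads per library. Over the 6 fin libraries its level was 0.170 to 0.314 CPM (median 0.215), against 0.906 to 4.86 CPM (median 3.08) over the 12 spine libraries. The groups did not overlap, as for 2.4% of gene models in this direction. *HOXB2A* was 10.9-fold lower in the fins (log2 difference -3.44 ± 0.26 SE, edgeR adjusted p = 3.99e-08, lower in 3 of 3 fish), in a comparison where 12.5% of gene models were called lower. The spines of each fish had 9.50, 16.1 and 11.2 times the level of its fins. The call held for AF alone (-3.64) and for DF alone (-3.25) against the spines.

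*HOXA2A* separated the fins from each other as well. AF had 0.127, 0.136 and 0.182 CPM, from 4 to 6 reads per library, and DF had 1.08, 0.361 and 0.739 CPM. These did not overlap, as for 2.71% of gene models in this direction. The fins together had 0.127 to 1.08 CPM (median 0.271), against 0.614 to 6.27 CPM (median 2.86) in the spines, and the overlap was between DF and DSL. *HOXA2A* was 7.28-fold lower in the fins (log2 difference -2.86 ± 0.21 SE, edgeR adjusted p = 2.77e-08, lower in 3 of 3 fish). Against the 4 spines the difference was -4.00 for AF alone and -1.73 for DF alone. AF was 4.83-fold lower than DF (-2.27 ± 0.34 SE, adjusted p = 0.00382), where 0.208% of gene models were called lower, and DF had 8.53, 2.65 and 4.06 times the level of AF in the 3 fish. This call was lost without replicate 1 (-1.76, adjusted p = 0.727) and without replicate 3 (-2.43, adjusted p = 0.294), as it was under limma-voom (-2.09, adjusted p = 0.149). In pooled reads, 15 in AF and 77 in DF, the ratio was 0.201 with a 95% counting interval of 0.107 to 0.352, which covers counting error only. *HOXB2A* gave -0.39 for the same comparison, with an interval of -1.28 to 0.50.

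*HOXA2B* ran the other way. AF had 0.762, 0.952 and 1.15 CPM, and DF had 2.00, 2.01 and 1.67 CPM. DF was the highest tissue in 3 of 3 fish and overlapped no other tissue, while AF, Pter and the spines overlapped in a chain. How many gene models had a tissue set apart in this way was not counted. Over both fins the level was 0.762 to 2.01 CPM (median 1.41), against 0.257 to 1.13 CPM (median 0.742) in the spines, a 1.88-fold higher level in the fins (log2 difference 0.91 ± 0.25 SE, edgeR adjusted p = 0.0112, higher in 3 of 3 fish). In this comparison 16.9% of gene models were called higher, so a call in this direction was common. AF alone against the spines gave 0.42 (adjusted p = 0.424) and DF alone 1.40 (adjusted p = 0.00351). Without replicate 2 the difference over both fins was 0.64 (adjusted p = 0.116) and without replicate 3 it was 1.00 (adjusted p = 0.0593, edgeR in each case). AF against DF gave -0.99 ± 0.42, with an edgeR adjusted p of 1.0 and an interval of -1.87 to -0.11. The methods give the fin and spine libraries of the related genus *Gasterosteus* different numbers of PCR cycles and describe the *Apeltes* protocol as similar, so any difference in cycle number cannot be told apart from tissue in the fin results.

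Across the border between the last spine and the dorsal fin, adjacent structures, the 3 genes had different log2 differences. This comparison was chosen after the values had been seen, so its adjusted p serve as description only. For *HOXA2A* the 77 reads of DF and the 65 of DSL gave almost the same level, with a log2 difference of 0.06 and an interval of -0.56 to 0.68. *HOXB2A* was 4.92-fold lower in DF than in DSL (-2.30 ± 0.38 SE, edgeR adjusted p = 0.00106), where 3.38% of gene models were called lower. *HOXA2B* was 2.93-fold higher in DF (1.55 ± 0.43 SE, adjusted p = 0.0343), where 4.13% were called higher. The difference between the genes in this step was not tested.

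The make-up of group 2 RNA therefore varied by tissue. On the scale of CPM per kb of exon, *HOXA2B* made up 71.1% ± 3.32 of the summed level of the 3 genes in AF and 64.3% ± 9.67 in DF. These shares depend on the exon lengths of the gene models. Whether the single-block model of *HOXA2A* is complete was not tested. In Pter the share of *HOXA2B* was 22.7% ± 3.90. In the spines it was 5.50% ± 3.17 in DS1, 9.26% ± 2.95 in DS2, 14.8% ± 7.65 in DS3 and 22.0% ± 10.1 in DSL (SD, n = 3 each). *HOXA2B* held the largest share in every fin library and in no other library. *HOXA2A* held the largest share in DS1, at 54.7% ± 2.65, and *HOXB2A* in DSL, at 51.0% ± 8.68. The summed level was 0.891 ± 0.155 CPM per kb in AF, 1.98 ± 0.319 in DF, 2.97 ± 0.0974 in Pter, 7.20 ± 0.900 in DS1, 5.87 ± 0.961 in DS2, 4.04 ± 0.707 in DS3 and 1.91 ± 0.542 in DSL. DSL and DF thus had close sums of different make-up. In DSL the ratio of *HOXA2A* to *HOXB2A* reads was 0.490, 0.526 and 0.677, below that of every DS1 library (1.77, 1.23 and 1.40). The ratio did not fall step by step along the spines. Its means were 1.47 in DS1, 0.973 in DS2, 1.46 in DS3 and 0.565 in DSL. Outside the spines they were 2.78 in DF, 1.06 in Pter and 0.761 in AF. How many pairs of gene models set DSL apart from DS1 in this way was not counted.

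**Figure D3:**
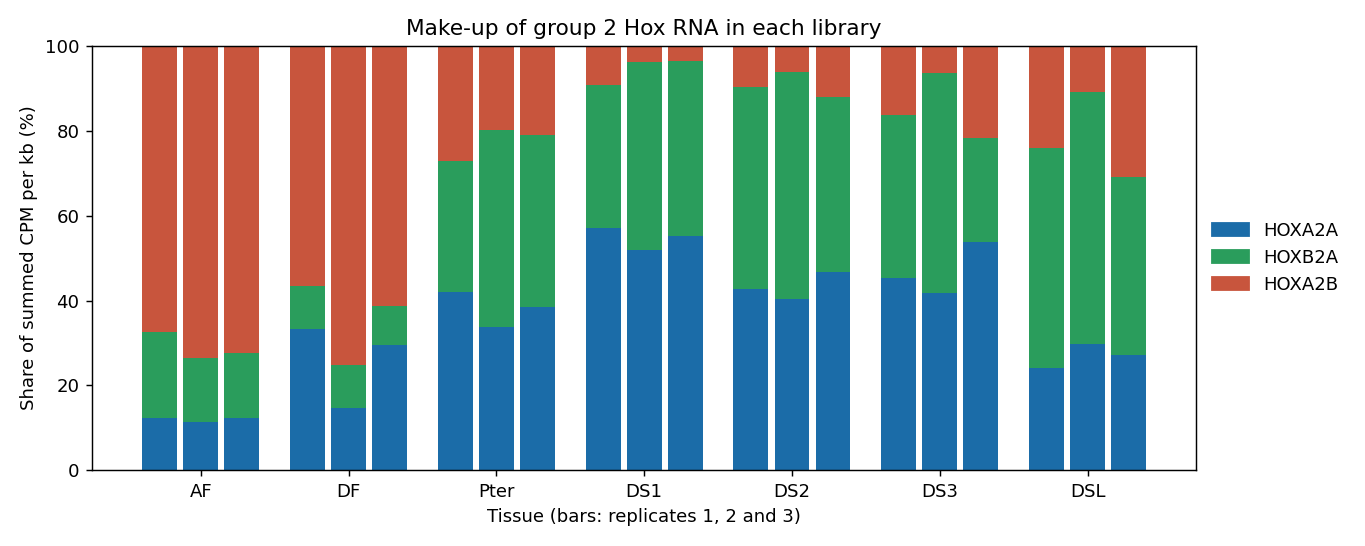
Share of each gene in the summed level of the 3 group 2 genes (CPM per kb of exon, in percent, vertical axis) in each of the 21 libraries, grouped by tissue (horizontal axis, replicates 1 to 3 from left to right). *HOXA2B* takes 56.5% to 75.1% of each fin bar and 3.50% to 30.9% of each spine bar.

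Between fins and spines, each group 2 gene had the direction shared by most of the tested genes of its cluster. Of the 8 other HOXBA genes, 6 could be tested, and all 6 were lower in the fins than in the spines, with a median log2 difference of -2.49 (range -3.64 to -2.32, against a median of -0.02 over all gene models tested). The value of *HOXB2A*, -3.44, lay between those of *HOXB9A* (-3.64) and *HOXB5A* (-2.66). Of the 8 tested HOXAA genes other than *HOXA2A*, 5 were called lower and 2, *HOXA11A* and *HOXA13A*, higher, with a median of -0.95. *HOXA10A* (-0.32) did not pass in this main fit. Over all gene models tested, 12.5% were called lower and 16.9% higher. With fish as a term all 8 HOXAA genes passed, 6 of them lower and 2 higher. That fit called 23.9% of gene models lower and 23.8% higher. The value of *HOXA2A*, -2.86, was the lowest of the cluster, below *HOXA3A* (-1.77). The 4 other HOXAB genes, of groups 9 to 13, were all higher in the fins, with a median of 4.50, and *HOXA2B* at 0.91 had the smallest value of its cluster, next to *HOXA9B* (1.73). Differences between genes were not tested.

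Along the spines the clusters gave different ranges. In DSL against DS1, *HOXA5A* was the only other HOXAA gene called in the main fit, at -1.58 ± 0.30 (edgeR adjusted p = 0.0311). Like its group, it has roles in patterning the neck and thorax in the mouse. *HOXA3A* and *HOXA4A* gave -0.71 and -0.48 without passing in that fit. With fish as a term 3 of the 8 other tested HOXAA genes were called, all lower in DSL, with *HOXA3A* and *HOXA4A* among them. The remaining 5 HOXAA genes, of groups 7 to 13, lay between -0.09 (*HOXA9A*) and 0.47 (*HOXA7A*), and the median of the 8 was -0.06. All 6 tested HOXBA genes beside *HOXB2A* had negative values, from -1.19 to -0.57 with a median of -1.08, of which edgeR called *HOXB5A* and *HOXB8A*, and all 6 with fish as a term. The 4 HOXAB neighbours of *HOXA2B* had values from 2.75 to 6.66, and 3 of them, *HOXA9B*, *HOXA10B* and *HOXA11B*, passed as higher in DSL, where *HOXA2B* had 0.13 ± 0.44. Between posterior and anterior spines the lowest edgeR adjusted p among the other HOXAA and HOXBA genes were 0.0842 for *HOXA5A* and 0.103 for *HOXB8A*. With fish as a term 3 genes of each cluster passed. In HOXAA 2 of these were lower and 1 was higher in the posterior spines, and in HOXBA all 3 were lower. Of the 4 HOXAB genes, 3 were higher in both fits. Over all gene models tested, 0.208% were called between DSL and DS1 (1.45% with fish as a term) and 0.0899% between posterior and anterior spines (1.11% with fish as a term).

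**Figure D4:**
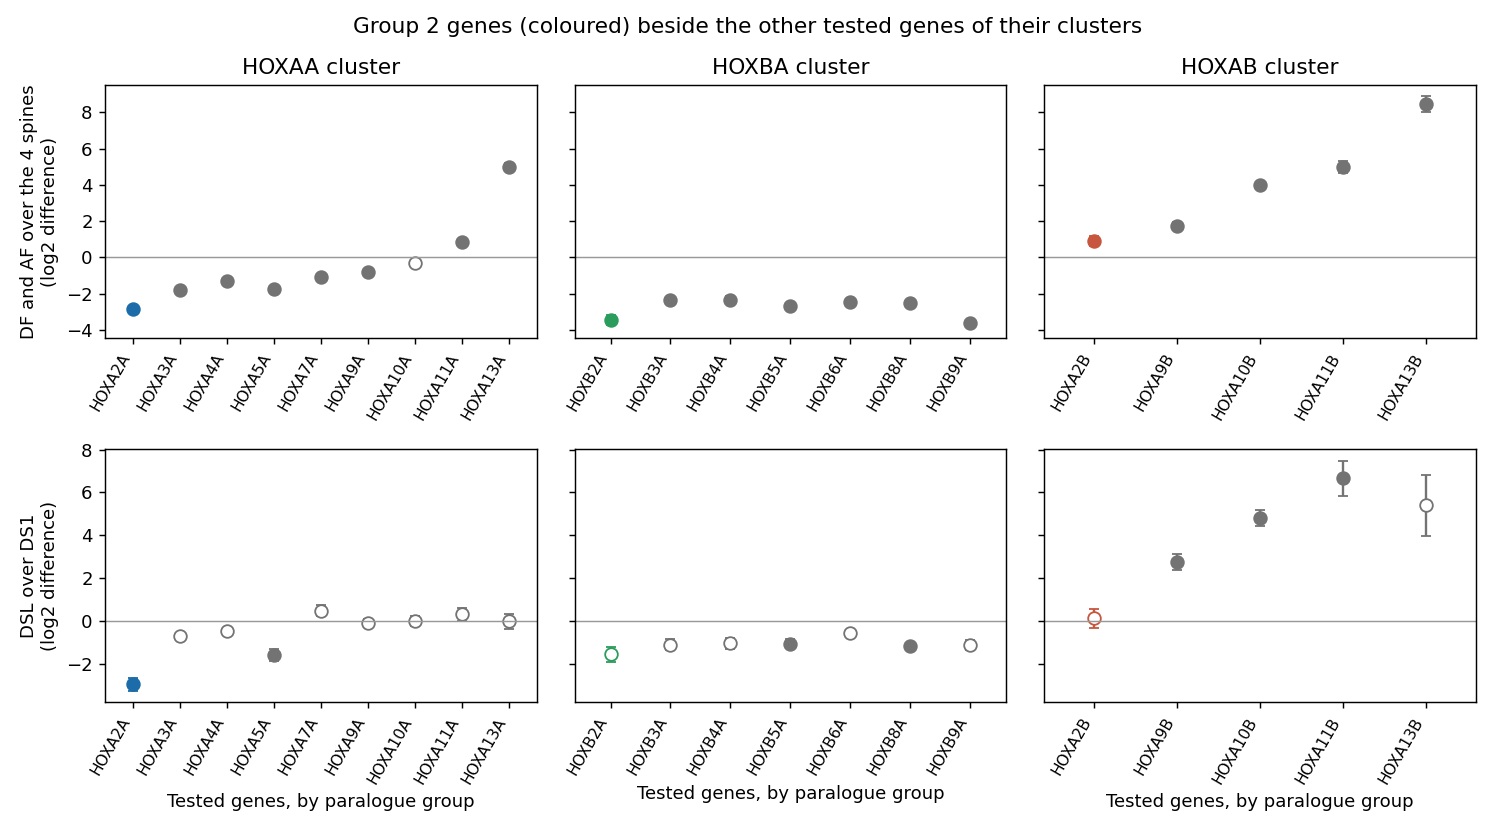
Log2 difference ± SE (vertical axes) of the tested genes of the HOXAA, HOXBA and HOXAB clusters, ordered by paralogue group (horizontal axes), for the fins over the spines (top) and DSL over DS1 (bottom). Filled points have an edgeR adjusted p under 0.05. *HOXA2A* has the lowest value of its cluster in both rows, at -2.86 and -2.95, while *HOXA2B* has the smallest values of a cluster whose other genes reach 8.47 and 6.66.

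Of the paralogue groups on either side of group 2, only group 3 could be tested. It was tested through *HOXA3A*, *HOXB3A* and *HOXD3A*, and 2 further members were set aside by the filter. *HOXA3A* averaged 1.20 CPM in AF, 2.80 in DF, 6.17 in Pter, 7.98 in DS1, 7.11 in DS2, 5.55 in DS3 and 4.86 in DSL. *HOXB3A* averaged 0.958 CPM in AF, 0.930 in DF, 3.69 in Pter, 6.21 in DS1, 5.45 in DS2, 5.38 in DS3 and 2.89 in DSL. *HOXD3A* had its highest spine level in DSL, at 7.39 CPM, against 4.43 CPM in DS1. All 3 were called lower in the fins than in the spines (log2 differences -1.77, -2.34 and -0.51), as were 12.5% of all gene models tested. In DSL against DS1 they gave -0.71, -1.11 and 0.74 with edgeR adjusted p of 0.133, 0.104 and 0.138. With fish as a term all 3 passed, 2 of them lower and 1 higher in DSL, in a fit where 1.45% of gene models passed.

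Over the 21 libraries, *HOXA2A* and *HOXB2A* had a Pearson r of 0.896 in log2 CPM (0.920 over the 7 tissue means). The r of *HOXA2A* and *HOXA2B* was -0.312, and that of *HOXB2A* and *HOXA2B* was -0.585. These values describe libraries that share fish and tissue. Among 21133 other gene models, the genes most like *HOXA2A* were *HOXC6A* (r = 0.932), *HOXB8A* (0.917) and *HOXB4A* (0.898), and the *Hox* gene least like it was *HOXC11A* (-0.914). *HOXB2A* was closest to genes of its own cluster, *HOXB3A* (0.962), *HOXB8A* (0.959) and *HOXB5A* (0.940), and farthest from *HOXC12A* (-0.943). For *HOXA2B* the highest *Hox* values were lower, at 0.614 for *HOXA13A*, 0.601 for *HOXD12A* and 0.575 for *HOXA13B*, all of them genes of groups 12 and 13. These ranked only 171, 211 and 324 among all other gene models, so many models without a *Hox* name were more like *HOXA2B*. The *Hox* gene least like *HOXA2B* was *HOXB2A*. Outside the named genes, STRG.7048 (0.879) and STRG.5459 (0.871) were closest to *HOXA2A*, STRG.14246 (0.935) and STRG.15264 (0.934) to *HOXB2A*, and STRG.16889 (0.780) and STRG.18642 (0.777) to *HOXA2B*. STRG.14246 lies on chromosome 11 from 1444066 to 1455943, within the HOXBA cluster and on the strand of *HOXB2A*. The other 5 lie on chromosomes 4, 5, 11, 13 and 14.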

How the data were processed

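Stranded mRNA libraries were made from 7 tissues of 3 L/L fish. The deposited table holds counts, which the authors made by trimming (Trim Galore with cutadapt 2.4), mapping with STAR and counting reads per gene model with featureCounts (Subread 2.0.1), and the authors' summed exon length. For *Gasterosteus* the paper names a different version of featureCounts, and it describes the *Apeltes* protocol as similar. The models were built with StringTie on the authors' assembly, and *Hox* genes were named by BLAST. Whether reads were counted by strand is not given in the sources used here, which leaves overlapping models uncertain. Of its columns, 85 belong to other samples and were not used.

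Counts were fitted by tissue over all 21 libraries in edgeR 4.0.16 (R 4.3.3; TMM, filterByExpr, quasi-likelihood F test, Benjamini-Hochberg over 21134 gene models, threshold 0.05). The filter set aside 0.0403% of reads. CPM uses the TMM-scaled library sizes, and log2 CPM a prior count of 2. SE is the log2 difference divided by the square root of F. The main fit was also run on simulated counts with added changes of 1 or 2 on the log2 scale. It called 73% and 85% of them between posterior and anterior spines, and 74% and 91% between fins and spines. The changed gene models were drawn at random from all those tested. The mean CPM of the members exceeded that of only 17.6% to 26.1% of tested models, so these rates do not apply to them. The counts were drawn independently for each library with no fish effect, so they do not give the error rate for libraries that share fish. Replicate numbers 1 to 3 mark the same fish in every tissue (titles), so they pair the samples: residuals of libraries from the same fish correlated at 0.498 or more in all 63 pairs (median 0.682). The fit with fish as a term was therefore run beside the main one and lowered the common biological coefficient of variation to 0.118 from 0.255. Alternatives were RLE scaling, DESeq2 1.42.0, limma-voom (limma 3.58.1), no filter, a filter of 1 CPM in 6 libraries, the 12 spine libraries alone, other tissue sets, and leaving out each fish and each library. Libraries of a tissue differed beyond counting noise (chi-square per degree of freedom 27.0 to 308) and were kept as separate samples. The rule for named genes took all members, all *Hox* genes of groups 1 and 3, the genes of the members' clusters by counts, and for likeness the 3 *Hox* genes and 2 other models with the highest r and the lowest *Hox* gene. Members and lists were chosen with earlier results of these data known. Figures were drawn with matplotlib 3.10.9.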

Additional observations from a re-analysis of the deposited data

How the results depend on the processing

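Of 198 values under other tools, filters or tissue sets, 182 kept their direction and their side of the threshold, as did 679 of 720 with a fish or library left out. Many of the 720 left out a library of a tissue outside the comparison, which could hardly move the value, so this count says little about stability. Leaving out a whole fish lost the call of *HOXA2A* for DSL against DS3 in 3 of 3 cases. It lost those for AF against DF and over the 4 spines in 2 of 3 cases each. Those for DSL against DS1 and for posterior against anterior spines were lost in 1 of 3 cases each. The call of *HOXA2B* for the fins against the spines was lost in 2 of 3 cases. With fish as a term (the replicate block), *HOXB2A* passed between posterior and anterior spines (-1.20), between DSL and DS1 (-1.57) and over the 4 spines (adjusted p 0.00647), and *HOXA2B* passed over the 7 tissues (0.00371). The block changed no other call. The same results passed under DESeq2 (-1.18, -1.55, 0.00496 and 0.00381), and under limma-voom all but the third did (-1.25, -1.58 and 0.0230). limma-voom also gave *HOXB2A* 0.012 for Pter against DS3 and DSL, where edgeR gave -0.099, and lost *HOXA2A* for AF against DF (-2.09). Other tissue sets moved *HOXA2A* to -0.63 (Pter against 4 spines) and to 0.059 (DF against DSL, chosen after the values were seen), and *HOXA2B* to 0.42 (AF alone against the spines). The causes were not tested.

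Leaving out a fish or a library gave, for *HOXA2A*, -1.80 to -1.57 between posterior and anterior spines, -3.11 to -2.75 between DSL and DS1, -2.09 to -1.76 for DSL against DS3, -2.59 to -1.76 for AF against DF and adjusted p of 1.63e-05 to 0.143 over the 4 spines. For *HOXB2A* it gave -1.41 to -0.91 between posterior and anterior spines, -1.95 to -1.21 between DSL and DS1, -0.27 to 0.22 for DS2 against DS1, -0.40 to 0.18 for Pter and adjusted p of 0.0429 to 1.0 over the 4 spines. For *HOXA2B* it gave -0.061 to 0.38 between posterior and anterior spines, -0.20 to 0.67 between DSL and DS1, -0.19 to 0.36 for DS3 against DS2, 0.64 to 1.16 for the fins and adjusted p of 0.0232 to 0.392 over the 7 tissues. The number of gene models called by edgeR, by DESeq2 and with the block was 19, 112 and 234 between posterior and anterior spines, 44, 152 and 306 between DSL and DS1, 17, 265 and 1488 between DSL and DS3, 49, 269 and 1054 over the 4 spines (26 with the spine libraries alone), 1566, 2329 and 5425 for Pter, 46, 76 and 90 for AF against DF, 6208, 6968 and 10079 for the fins, and 4274, 6278 and 10374 over the 7 tissues. DESeq2 called 6 and 7 in DS2 against DS1 and DS3 against DS2, against 1 and 3 by edgeR, and limma-voom called 30 between DSL and DS3.

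With 3 fish per tissue and 4 to 195 reads per gene and library, values at a few reads (fins for *HOXA2A* and *HOXB2A*, spines for *HOXA2B*) carry wide counting error. The fish came from a single population and genotype. P-values of the main fit treat the 21 libraries as independent, although they share 3 fish. Those with fish as a term measure the spread that remains within these fish. Neither kind measures spread beyond these fish.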
